A study of Homo sapiens with 6 samples.

Results

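The genes described here are 37 genes of the lysosome: its membrane proteins, its soluble hydrolases, part of its proton pump and the transcription factors that regulate them. They were chosen by name, as the rows of the deposited count table whose Ensembl identifiers map to those symbols. All 37 had a row, among 17104 genes in the table. The table holds RNA-seq counts of 6 libraries made from HBMEC, a cultured line that the labels describe as endothelial and taken from brain. Of these, 3 libraries (titled CON) came from cells under normal culture and 3 (titled OGD) from cells after OGD/R, oxygen-glucose deprivation followed by reperfusion, a culture model of ischaemia. The line, the tissue and the library kit were the same in both groups. The labels give neither the length of deprivation and reperfusion nor whether replicates were grown as separate cultures. The p-values therefore measure the spread between these libraries, which may be technical.

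Lysosomes are the acidic organelles in which cells break down proteins, sugars, lipids and nucleic acids delivered by endocytosis and autophagy. A proton pump of the vacuolar type (V-ATPase) acidifies the lumen, heavily glycosylated membrane proteins line it, and soluble hydrolases reach it by way of the secretory pathway, many of them tagged with mannose 6-phosphate. The related factors TFEB, TFE3 and MITF bind E-box motifs in the promoters of many of these genes and can raise them together when nutrients are scarce. Inherited loss of single hydrolases causes the lysosomal storage diseases.

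After OGD/R the lysosomal genes did not move as a block. The gene for alpha-galactosidase A (GLA), the acid lipase gene LIPA, the pump subunit genes ATP6V1A and ATP6V0D1 and the tetraspanin gene CD63 rose. The acid alpha-glucosidase gene GAA, the sulfatase gene IDS, the protease genes TPP1 and CTSB, the beta-galactosidase gene GLB1 and the activator gene PSAP fell. In all, 5 of 37 genes were higher and 6 were lower at an adjusted p under 0.05 (edgeR's quasi-likelihood test over all genes, Benjamini-Hochberg adjustment), that is 13.5% and 16.2%, where 10.2% and 9.48% of all 17104 tested genes were called in these directions. Scaling by total counts alone changed the split to 5 higher and 9 lower here, and to 1383 higher and 2098 lower over all genes, from 1749 and 1621. The median log2 fold change (OGD/R over control) was -0.0025 for the lysosomal genes and -0.0046 for all genes. The absolute changes of the 11 called genes ran from 0.13 to 0.44 on the log2 scale, and 0 of the 37 reached 2-fold. In 14 of 37 genes (37.8%) the groups did not overlap, with OGD/R above control in 7 and below it in 7, beside 33% of all genes. The number of lower genes depended on single libraries. It was 3 without control replicate 3, 3 without OGD/R replicate 2 and 2 without OGD/R replicate 3, where the number of lower genes over the whole table was 1079, 1142 and 1208. Without control replicate 1 it was 8 and without OGD/R replicate 1 it was 7, against 1287 and 1393 over the whole table. The 5 higher genes passed in each of these 5 fits.

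**Figure D1:**
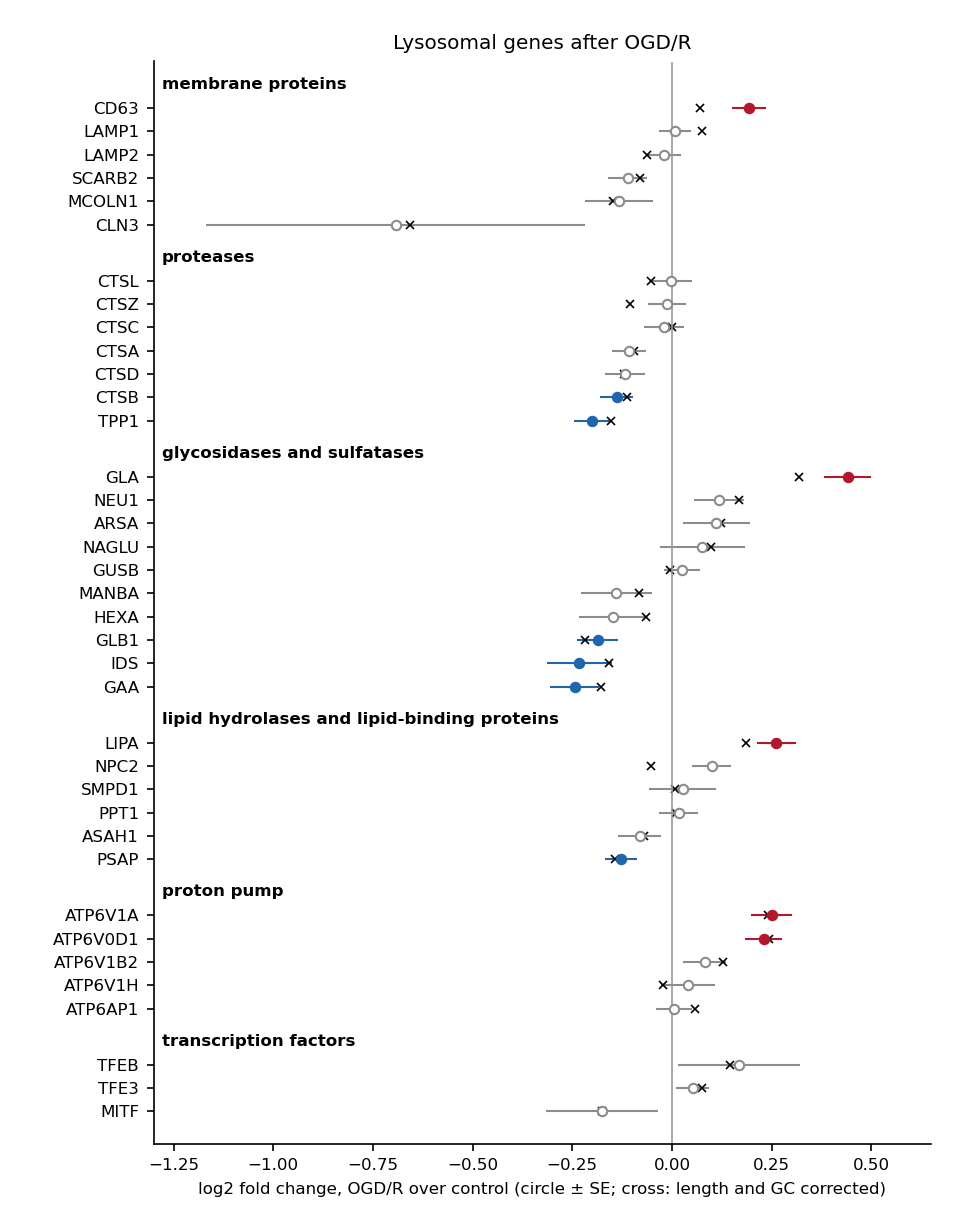
Log2 fold change of the 37 lysosomal genes (x axis, OGD/R over control), grouped by role. Circles with bars are the estimate and its standard error, filled red or blue where the gene passed as higher or lower and open where it did not, and crosses are the estimate after correction for transcript length and GC content. GLA lies farthest to the right at 0.44, the called genes that fell lie between -0.24 and -0.13, and CLN3 has by far the widest bar.

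Libraries held 31048662 to 34484647 counts, and the 37 genes took 0.462% to 0.488% of them. Across 10848 protein-coding genes above 4 CPM the fold change fell with transcript length (Spearman's rho -0.36, across genes, which are not independent replicates), so values after a correction for length and GC content are also given where the call changed. The labelled cell type was checked against markers. Of 12 endothelial markers 4 had a row, with a summed level of 198 to 215 CPM in control and 203 to 210.4 CPM in OGD/R libraries. Most of that sum came from ESAM (138 CPM in control) and EGFL7 (52.7 CPM), which did not pass. CDH5, the cadherin of endothelial junctions, rose from 10.3 to 18.1 CPM (0.81, adjusted p = 2.71e-07), and the receptor gene ROBO4 fell from 6.36 to 3.79 CPM (-0.75, adjusted p = 0.00107). PECAM1, VWF, KDR and TEK were among the 8 with no row and were not analysed here. Of 12 epithelial markers 9 had a row, with a summed level of 2485 to 2711 CPM in control and 3048 to 3104 CPM in OGD/R libraries. The epithelial sum was above the endothelial one in every library, and higher in every OGD/R library than in any control library. It came mostly from the keratin genes KRT8, KRT18 and KRT7, which rose with ELF3, while EPCAM (0.14), CLDN4 (-0.25), ESRP1 (-0.18), CDH1 (-0.28) and ESRP2 (-0.0066) did not pass. CDH1, the epithelial cadherin, stood at 1.19 CPM in control. The part of these markers in the results below was not tested. Of 10 monocyte and macrophage markers, cells rich in lysosomes, CD14 and LAPTM5 had a row and together reached 8.52 to 11.4 CPM in any library. In bulk RNA, fewer cells of a type and less RNA per cell cannot be told apart.

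The 3 transcription factors had different levels and none passed the test. TFE3, which shuttles between cytoplasm and nucleus with nutrient supply, stood at 232, 242 and 236 CPM (counts scaled to library size by TMM) in control replicates 1, 2 and 3 and at 247, 254 and 236 CPM after OGD/R. The 2 groups overlapped, with a log2 fold change of 0.05 ± 0.04 (SE) and an adjusted p of 0.432. TFEB, its close relative and the best-known regulator of lysosome formation, stood at 5.02, 6.13 and 5.96 CPM in control and 6.18, 6.30 and 6.74 CPM after OGD/R. All OGD/R libraries of TFEB lay just above the control ones, but the change of 0.17 ± 0.15 did not pass (adjusted p = 0.508). MITF, the family member known from melanocytes, stood at 9.001, 6.76 and 8.30 CPM in control and 7.06, 6.89 and 7.34 CPM after OGD/R (-0.18 ± 0.14, adjusted p = 0.435). Per kilobase of the longest annotated transcript, TFE3 had a level of 69.3 CPM per kb in control, TFEB 2.20 and MITF 1.67, and the control libraries of these 3 genes did not overlap on that scale (68.1 to 70.8, 1.93 to 2.36 and 1.40 to 1.87). These are transcript levels, while these factors are known to be controlled largely by phosphorylation and location, which RNA-seq does not measure.

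The promoters of the list were searched for the letters that these factors are known to bind. RefSeq windows (GRCh38.p14) of 300 bases, from 250 bases before to 50 after each start, were found for 26 of the 37 genes, in 41 windows. The called genes ATP6V1A, CTSB and PSAP had no window, and windows of the same gene can overlap. The E-box CACGTG was found in 24.4% of the 41 windows and in 7.26% of all 35116 RefSeq windows. The longer form TCACGTG, or CACGTGA on the other strand, which contains the first motif, was found in 22.0% of the lysosomal windows and in 3.71% of all windows. By gene, 8 of 26 (30.8%) held the longer form in at least 1 window, beside 4.49% of all RefSeq genes. They were LAMP1, MCOLN1, CTSA, CTSD, NEU1, CLN3, GAA and ATP6V0D1. Of these 8 genes, ATP6V0D1 rose, GAA fell and the other 6 did not pass, where 19.7% of all tested genes were called. After the length and GC correction CTSA (-0.10) and CTSD (-0.12) passed as lower and NEU1 (0.17) as higher. A match is a description of the letters in the window and not a measured binding site. The windows of 5 genes are shown because they set a promoter with matches beside each kind of outcome, and GLA, with the largest change among the called genes and no match, beside them. Capitals mark each CACGTG with a flanking T before it or A after it.
LAMP1, chr13:113296989-113297288, plus strand: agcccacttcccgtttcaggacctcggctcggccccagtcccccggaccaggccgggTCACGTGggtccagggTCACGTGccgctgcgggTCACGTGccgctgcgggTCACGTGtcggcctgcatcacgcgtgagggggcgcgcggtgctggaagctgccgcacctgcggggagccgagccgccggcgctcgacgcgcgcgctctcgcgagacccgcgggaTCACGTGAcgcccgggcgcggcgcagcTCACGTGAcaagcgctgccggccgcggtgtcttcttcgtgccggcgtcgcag
MCOLN1, chr19:7522374-7522673, plus strand: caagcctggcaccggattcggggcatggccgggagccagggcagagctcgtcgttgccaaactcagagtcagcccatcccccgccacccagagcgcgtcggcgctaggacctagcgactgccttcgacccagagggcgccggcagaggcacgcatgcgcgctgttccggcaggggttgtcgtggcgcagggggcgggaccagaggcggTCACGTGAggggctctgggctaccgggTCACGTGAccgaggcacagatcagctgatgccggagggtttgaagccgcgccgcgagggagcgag
GAA, chr17:80101331-80101630, plus strand: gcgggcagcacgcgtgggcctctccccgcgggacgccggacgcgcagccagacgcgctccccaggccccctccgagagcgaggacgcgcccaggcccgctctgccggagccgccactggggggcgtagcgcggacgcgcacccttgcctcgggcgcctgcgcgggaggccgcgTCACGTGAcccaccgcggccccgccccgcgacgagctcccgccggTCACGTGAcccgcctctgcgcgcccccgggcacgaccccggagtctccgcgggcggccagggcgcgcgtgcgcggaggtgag
ATP6V0D1, chr16:67481108-67481407, minus strand: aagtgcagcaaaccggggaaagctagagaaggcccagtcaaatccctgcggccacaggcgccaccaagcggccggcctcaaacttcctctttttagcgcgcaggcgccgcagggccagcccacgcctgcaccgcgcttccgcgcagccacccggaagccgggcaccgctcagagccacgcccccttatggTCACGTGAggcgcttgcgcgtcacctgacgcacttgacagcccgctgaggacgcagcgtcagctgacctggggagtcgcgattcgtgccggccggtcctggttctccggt
GLA, chrX:101407876-101408175, minus strand: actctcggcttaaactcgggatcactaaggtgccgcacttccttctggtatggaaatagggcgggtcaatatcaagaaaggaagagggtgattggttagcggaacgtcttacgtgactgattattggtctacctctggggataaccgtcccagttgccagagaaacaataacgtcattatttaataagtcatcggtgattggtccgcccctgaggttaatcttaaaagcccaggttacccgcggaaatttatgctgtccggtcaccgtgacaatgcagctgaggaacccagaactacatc
LAMP1 holds 6 copies of CACGTG and had a log2 fold change of 0.01. MCOLN1 and GAA hold 2 each and had values of -0.13 and -0.24. ATP6V0D1 holds 1 and rose by 0.23. GLA holds 0 and rose by 0.44.

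Of the 5 proton pump genes 2 passed (40%), both as higher, where 10.2% of all genes passed as higher. The others had values near or above 0, of which ATP6AP1 lay below 0 with total-count scaling. ATP6V1A encodes the catalytic subunit that splits ATP in the cytosolic part of the pump. It stood at 99.2, 86.2 and 86.8 CPM in control and at 112, 105 and 107 CPM after OGD/R. The groups did not overlap, and the rise was 0.25 ± 0.05 (adjusted p = 0.000298). ATP6V0D1 encodes a subunit that joins the membrane part to the central stalk. It rose from 116, 121 and 124 CPM to 146, 142 and 135 CPM (0.23 ± 0.05, adjusted p = 0.000166), again without overlap. ATP6V1B2, the other subunit of the catalytic ring, had a value of 0.08 ± 0.05 (adjusted p = 0.316). ATP6V1H, a regulatory subunit, had 0.04 ± 0.07, and the accessory subunit gene ATP6AP1 had 0.01 ± 0.04. ATP6V1H lay at -0.02 once corrected for length and GC content, and ATP6AP1 at -0.03 with total-count scaling. The summed level of the 5 genes was 495.6 to 497 CPM in control libraries and 529.8 to 561 CPM in OGD/R libraries.

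Of 17 further pump subunit genes, taken from general knowledge of the complex, 15 had a row, and 4 rose and 1 fell. ATP6V1D rose by 0.29 ± 0.06 (adjusted p = 0.000146, and by 0.17 once corrected), ATP6V1G1 by 0.24 ± 0.06, ATP6V1E1 by 0.22 ± 0.05 and TCIRG1, a membrane subunit known from osteoclasts, by 0.20 ± 0.05. ATP6V0A4, a subunit isoform known from the kidney, fell from 2.31 to 1.33 CPM (-0.80 ± 0.29, adjusted p = 0.0427). Its call was lost with DESeq2 and without control replicate 1 or 3 or OGD/R replicate 1 or 3. Together with the 5 genes above, 6 of 20 measured pump genes were higher and 1 was lower, with a median of 0.09. These are 35% called, beside 19.7% of all genes. Corrected for length and GC content, the pump counts were 5 and 3 and the median was 0.05. For the 15 further genes alone the corrected counts were 3 and 3, and the median went from 0.11 to -0.02. For the 5 genes above the corrected counts were 2 and 0, with a median of 0.13. Over all genes the corrected fit called 1771 higher and 1528 lower, with a median of -0.014. ATP6V1E1 (0.07) and ATP6V1G1 (0.04), which have short transcripts, no longer passed, while ATP6V0D1 (0.24, adjusted p = 2.78e-06) and ATP6V1A (0.24, adjusted p = 5.03e-05) did.

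Of the 6 membrane protein genes, CD63 was the only one that passed, 16.7% called beside 19.7% of all genes. CD63 encodes a tetraspanin of late endosomes and lysosomes that is also used as a marker of exosomes. It stood at 258, 293 and 277 CPM in control and at 302, 315 and 328 CPM after OGD/R, with no overlap and a rise of 0.19 ± 0.04 (adjusted p = 0.000836). Its longest transcript has 1233 nucleotides, the shortest of the 37, and after the length and GC correction its value was 0.07 (adjusted p = 0.159). LAMP1 and LAMP2, the most abundant proteins of the lysosomal membrane, did not pass. LAMP1 stood at 367, 366 and 379 CPM in control and 388, 366 and 364 CPM after OGD/R (0.01 ± 0.04, adjusted p = 0.935). LAMP2, which has a role in chaperone-mediated autophagy, stood at 228, 211 and 219 CPM and then at 229, 208 and 211 CPM (-0.02 ± 0.04, adjusted p = 0.803). Both genes overlapped between the groups, and both changed sign when single libraries were left out.

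SCARB2 encodes LIMP-2, a membrane protein that also acts as a receptor for sorting to the lysosome. Its OGD/R libraries, at 102, 100.4 and 102 CPM, all lay below the control ones, at 109, 105 and 115 CPM, but the change of -0.11 ± 0.05 did not pass (adjusted p = 0.101, and 0.0331 with total-count scaling). MCOLN1, the calcium channel through which lysosomes activate TFEB, stood at 25.7, 29.2 and 24.2 CPM in control and at 26.1, 22.7 and 23.2 CPM after OGD/R (-0.13 ± 0.08, adjusted p = 0.304). CLN3, mutated in juvenile Batten disease, was covered by only 14 to 40 counts per control library and 11 to 21 per OGD/R library. Its value of -0.69 ± 0.47 did not pass (adjusted p = 0.349), and whether a change of this size could be detected at this depth was not tested. Other genes overlap 30.9% of its exons.

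**Figure D2:**
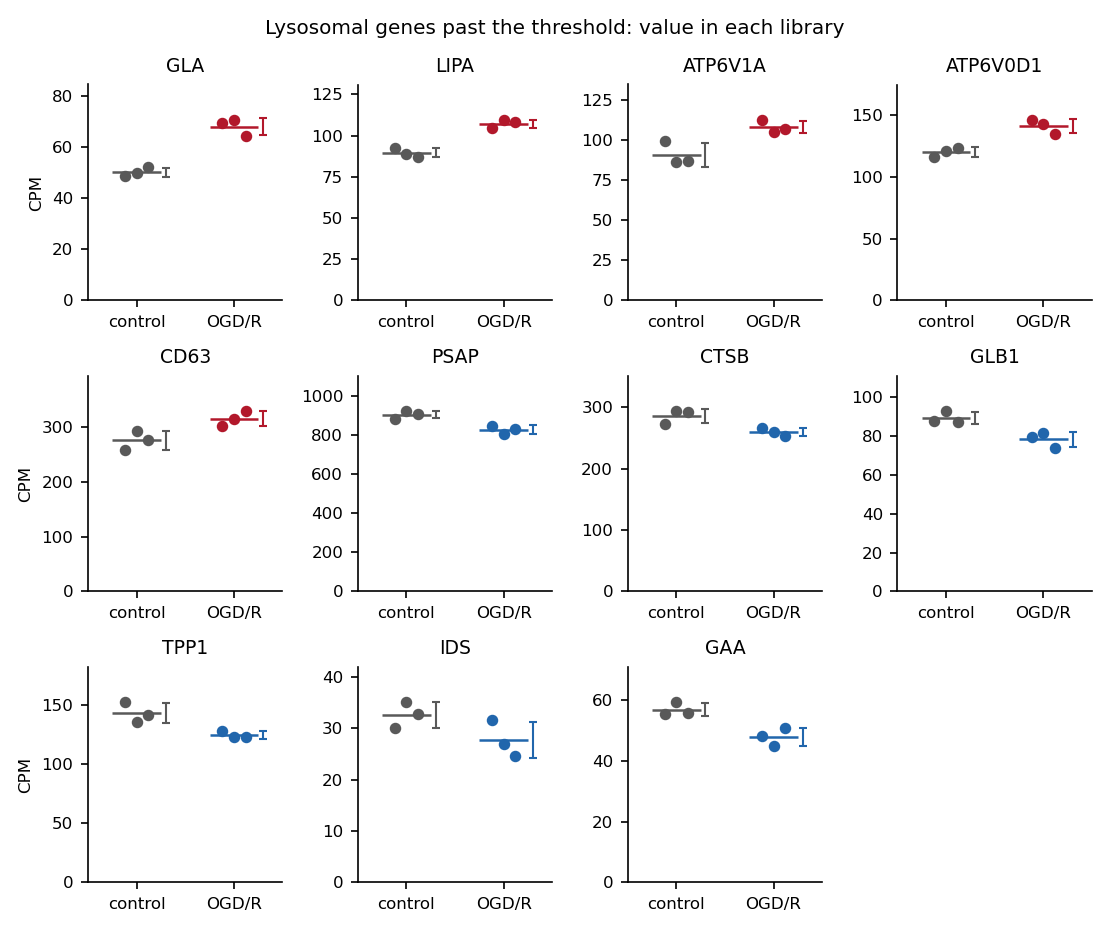
Level of the 11 called lysosomal genes in each library (y axis, TMM-scaled CPM from 0), control in grey and OGD/R in red where the gene rose and blue where it fell. Points are libraries in replicate order, lines are means and bars beside them are SD over 3 libraries. The groups do not overlap in 10 of the 11 panels, the exception being IDS.

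Of the 7 protease genes 2 passed (28.6%), both as lower, where 9.48% of all genes passed as lower. The other 5 had values below 0, and the median over all genes was -0.0046. Of these 5, CTSL lay above 0 with upper-quartile scaling. TPP1 encodes a peptidase that trims tripeptides from protein ends and is lost in late infantile Batten disease. It fell from 152, 136 and 142 CPM to 128, 123 and 123 CPM, without overlap (-0.20 ± 0.05, adjusted p = 0.00126). CTSB, a cysteine cathepsin of broad activity, fell from 272, 293 and 292 CPM to 267, 260.1 and 253 CPM (-0.14 ± 0.04, adjusted p = 0.0130). The CTSB groups were separated by less than the spread among the control libraries. Its adjusted p was 0.00202 to 0.0946 over all alternatives, and it no longer passed without control replicate 3, OGD/R replicate 2 or OGD/R replicate 3.

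CTSD, the main aspartic protease of the lysosome, stood at 109, 124 and 124 CPM in control and at 109.8, 108 and 111 CPM after OGD/R. Control replicate 1 lay among the OGD/R libraries, and the change of -0.12 ± 0.05 did not pass (adjusted p = 0.0881). Other genes overlap 52.7% of the CTSD exons, so its counts are uncertain in source. CTSA, which protects beta-galactosidase and neuraminidase in a complex, had -0.11 ± 0.04 (adjusted p = 0.0648). The carboxypeptidase gene CTSZ (-0.01), the dipeptidyl peptidase gene CTSC (-0.02) and the cysteine protease gene CTSL (-0.0025) lay closer to 0, and each of these 3 changed sign under some alternative. With the length and GC correction, 5 of the 7 protease genes were lower and 0 higher, beside 1528 lower and 1771 higher of all 17104 genes. The 5 were TPP1 (-0.15), CTSD (-0.12), CTSB (-0.11), CTSZ (-0.10, adjusted p = 0.0373) and CTSA (-0.10, adjusted p = 0.0374).

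Among the 10 glycosidase and sulfatase genes 1 rose and 3 fell, 40% called beside 19.7% of all genes. GLA encodes alpha-galactosidase A, which removes terminal galactose from globo-series glycolipids and is lost in Fabry disease. It stood at 48.6, 49.8 and 52.2 CPM in control and at 69.4, 70.5 and 64.5 CPM after OGD/R. Every OGD/R library lay above every control library by more than the spread within either group, and the rise of 0.44 ± 0.06 (adjusted p = 8.58e-08) was the largest among the 37 genes. It remained past the threshold in all 16 alternatives, at 0.32 to 0.48, the lowest being the value after the length and GC correction.

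GAA encodes the acid alpha-glucosidase that degrades lysosomal glycogen and is lost in Pompe disease. It fell from 55.4, 59.3 and 56.0 CPM to 48.3, 45.0 and 50.8 CPM, without overlap (-0.24 ± 0.06, adjusted p = 0.00271). GLB1, the acid beta-galactosidase whose activity is used as a senescence stain, fell from 87.8, 92.7 and 87.3 CPM to 79.8, 81.5 and 74.1 CPM (-0.19 ± 0.05, adjusted p = 0.00713). Its groups did not overlap, but without OGD/R replicate 3 it no longer passed (-0.15, adjusted p = 0.0827). IDS, which removes sulfate from glycosaminoglycans, fell from 30.0, 35.02 and 32.8 CPM to 31.6, 26.9 and 24.6 CPM (-0.23 ± 0.08, adjusted p = 0.0365). OGD/R replicate 1 of IDS lay within the control range, and the call was lost in 6 of 16 alternatives: DESeq2, the length and GC correction (-0.16, adjusted p = 0.188), and without control replicate 2 or 3 or OGD/R replicate 2 or 3 (adjusted p up to 0.277). Reads of IDS can also be shared with a pseudogene copy.

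The other 6 genes of this group did not pass. Neuraminidase 1 (NEU1), which trims sialic acid, lay above control in all OGD/R libraries at 49.8 to 54.3 against 45.8 to 49.3 CPM (0.12 ± 0.06, adjusted p = 0.194), and passed after the length and GC correction (0.17, adjusted p = 0.0309). ARSA, the sulfatase lost in metachromatic leukodystrophy, had 0.11 ± 0.08, and NAGLU, an enzyme of heparan sulfate breakdown, had 0.08 ± 0.11. Beta-glucuronidase (GUSB), often used as a reference gene in PCR, had 0.02 ± 0.05 (adjusted p = 0.779), with reads that can be shared with its pseudogenes. HEXA, the subunit lost in Tay-Sachs disease, had -0.15 ± 0.09, and beta-mannosidase (MANBA) had -0.14 ± 0.09. The summed level of all 10 genes was 474 to 503 CPM in control and 477 to 492 CPM in OGD/R libraries, so the groups overlapped on the sum.

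Of the 6 genes for lipid breakdown, 1 rose and 1 fell, 33.3% called beside 19.7% of all genes. LIPA encodes the acid lipase that frees cholesterol and fatty acids from lipoprotein esters. It stood at 92.5, 89.0 and 87.1 CPM in control and at 105, 109 and 108 CPM after OGD/R, with no overlap. Its rise of 0.26 ± 0.05 (adjusted p = 5.93e-05) remained past the threshold in all 16 alternatives, at 0.19 to 0.29. PSAP, the precursor of the saposins that present sphingolipids to their hydrolases, had the highest level per kilobase of the 37 genes. It fell from 881, 919 and 909 CPM to 847, 804 and 828 CPM (-0.13 ± 0.04, adjusted p = 0.0147). The PSAP groups did not overlap, yet the call was lost without control replicate 3, OGD/R replicate 2 or OGD/R replicate 3, with adjusted p up to 0.134. NPC2, which hands cholesterol to the membrane exporter NPC1, had 0.10 ± 0.05 (adjusted p = 0.161), and -0.05 after the length and GC correction. Acid ceramidase (ASAH1) had -0.08 ± 0.05, acid sphingomyelinase (SMPD1) 0.03 ± 0.08 and the thioesterase gene PPT1 0.02 ± 0.05.

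Levels spread over more than 3 orders of magnitude on the scale of CPM per kb of the longest annotated transcript. In control, PSAP was at 314, CD63 at 224, CTSZ at 128, CTSA at 99.2 and NPC2 at 94.5 CPM per kb. PSAP, CD63 and CTSZ did not overlap in their control libraries, whereas CTSA (96.3 to 104) and NPC2 (88.6 to 99.9) did. Next came CTSB at 73.8, LAMP1 at 70.7 and TFE3 at 69.3 CPM per kb, 3 genes whose control libraries overlapped. The lower end held HEXA at 3.39, MANBA at 3.06, TFEB at 2.20, MITF at 1.67 and CLN3 at 0.197 CPM per kb. This order rests on annotated lengths, and the transcripts in the cells can be shorter.

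**Figure D3:**
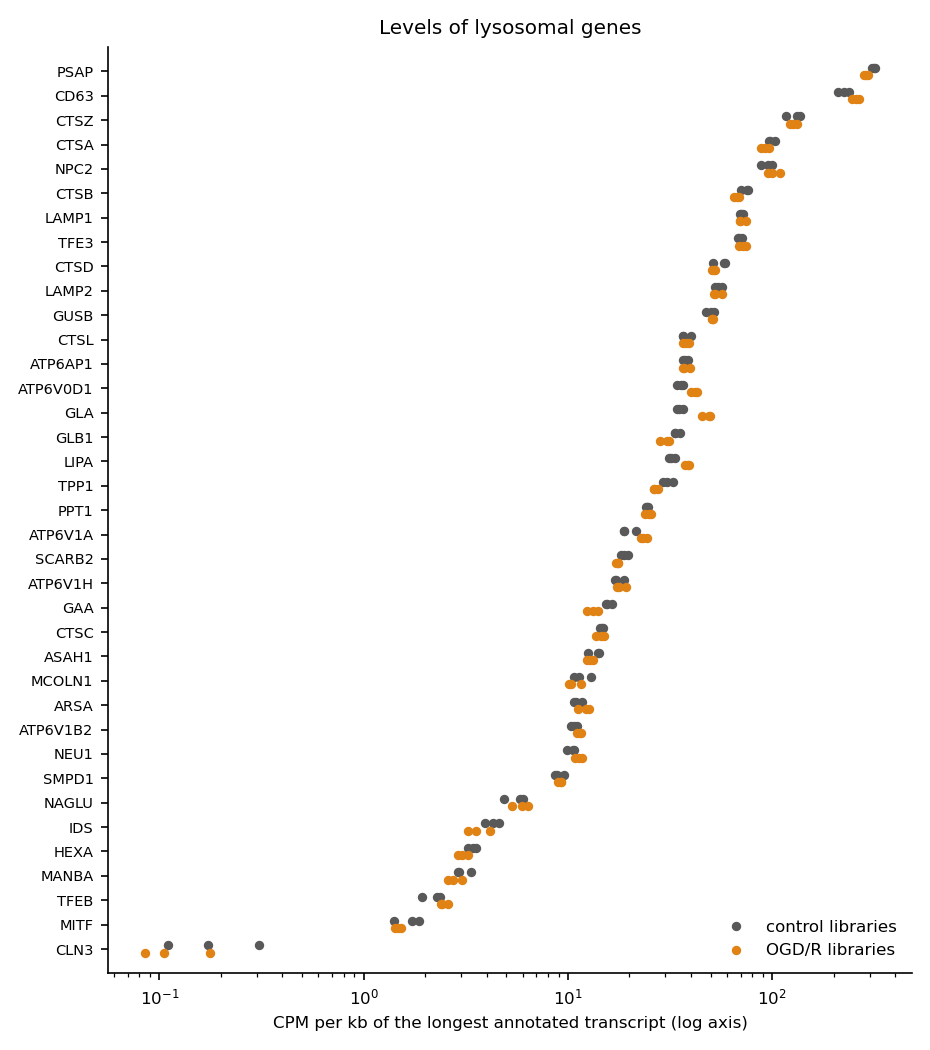
Levels of the 37 lysosomal genes (x axis, log scale, CPM per kb of the longest annotated transcript), sorted by the control mean. Grey points are the 3 control libraries and orange points the 3 OGD/R libraries of each gene. PSAP stands at the top at 314 and CLN3 at the bottom at 0.197 CPM per kb, and for most genes the shift between groups is small beside the spread between genes.

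The short genes GLA (1424 nucleotides) and CD63 (1233) were among those that rose and the long gene IDS (7619) among those that fell, which follows the direction of the length trend over all genes. The other called genes lay between 2616 and 4649 nucleotides, with rises in ATP6V1A, ATP6V0D1 and LIPA and falls in TPP1, CTSB, GAA, PSAP and GLB1. Once corrected, 5 genes were higher and 8 lower, with a median of -0.05. Over all 17104 genes the corrected fit called 1771 higher and 1528 lower, with a median of -0.014. Of the 11 lysosomal genes called without the correction, 9 were called again in the same direction, and CD63 and IDS were not.

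**Figure D4:**
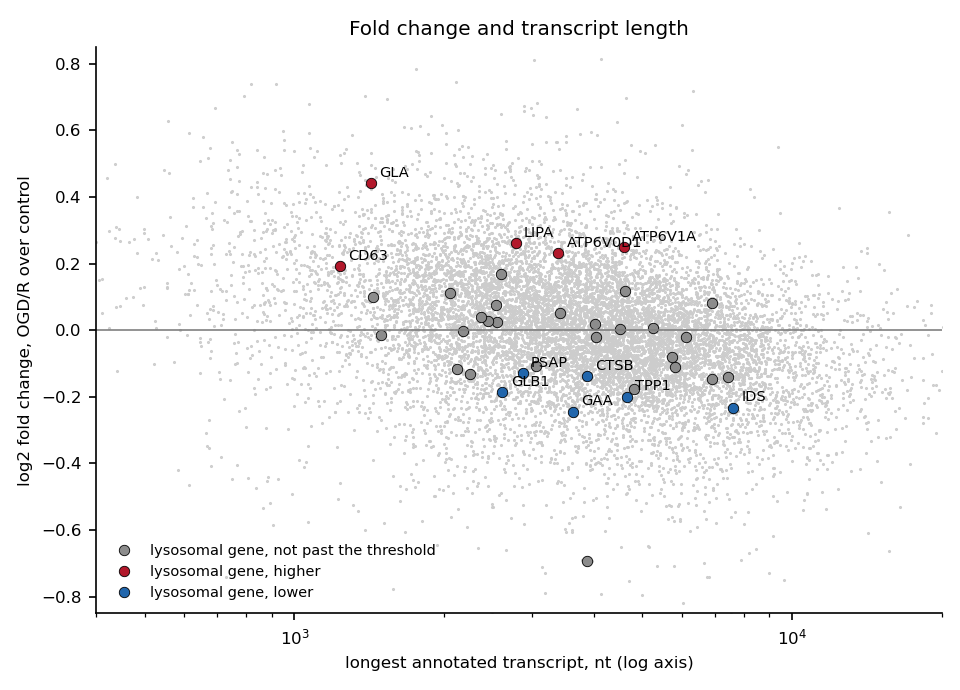
Log2 fold change (y axis, OGD/R over control) against the length of the longest annotated transcript (x axis, nucleotides, log scale). Small grey points are all genes with a mean above 4 CPM, and large points are the 37 lysosomal genes, red where higher, blue where lower and grey where not past the threshold. Shorter genes tend to lie higher, and called lysosomal genes of both directions lie side by side at middle lengths.

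Further genes of the organelle, 151 in 8 lists drawn from general knowledge, also moved in both directions. Of 143 with a row, 22 were higher and 17 lower, 27.3% in all beside 19.7% of all genes, with a median of 0.01. Among 30 other hydrolases 6 rose and 6 fell, 40% called beside 19.7% of all genes. The rising ones numbered 3 without control replicate 3 and 4 without OGD/R replicate 3. Corrected for length and GC content, 4 were higher and 6 lower, where 1771 and 1528 of all genes were called. CTSV, a cathepsin close to CTSL, rose from 41.4 ± 1.87 to 53.0 ± 4.78 CPM (mean ± SD, n = 3 each), a change of 0.35 ± 0.07.

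Of 19 other membrane proteins and transporters 2 rose and 1 fell, 15.8% called beside 19.7% of all genes. Without OGD/R replicate 1 or 3, 1 rose, and without control replicate 1 or OGD/R replicate 1, 2 fell. The chloride-proton exchanger gene CLCN7 fell (-0.33 ± 0.05, and -0.22 once corrected), while LAPTM4B (0.23 ± 0.04) and LAPTM4A (0.16 ± 0.05) rose. After the length and GC correction LAPTM4A lay at 0.04 and no longer passed. In the list of mannose 6-phosphate tagging and sorting, 2 of 15 rose and 2 fell (26.7% called). Without any 1 of the 6 libraries, 0 or 1 rose and 1 fell. These counts were 5 and 1 after the length and GC correction, 0 and 3 with total-count scaling and 0 and 2 with the replicate block. IGF2R, the large receptor that delivers tagged hydrolases, fell from 303 ± 13.9 to 249.6 ± 2.88 CPM with a change of -0.28 ± 0.04 (adjusted p = 1.04e-06). Corrected for length and GC content, it remained lower at -0.12. The smaller receptor M6PR had 0.02 ± 0.04 (adjusted p = 0.805) and is named here after its value was seen. CLN8, a transfer factor for newly made hydrolases, fell (-0.27), and the adaptor genes AP3B1 (0.13) and AP1G1 (0.12) rose, all 3 with an adjusted p of 0.0435 to 0.0495. Corrected for length and GC content, CLN8 no longer passed (-0.15, adjusted p = 0.294), while AP3B1 (0.14) and AP1G1 (0.18) did.

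Genes of nutrient sensing at the lysosomal surface, where the kinase mTORC1 is switched on and TFEB is kept in the cytoplasm, numbered 24, of which 3 rose and 4 fell. The share called was 29.2%, beside 19.7% of all genes. The rising genes numbered 1 without control replicate 1 or OGD/R replicate 2, and the falling ones 2 without control replicate 1. TSC2, a brake on mTORC1, fell (-0.30 ± 0.05), and RHEB, its activator and the target of TSC2, rose (0.17 ± 0.05). RRAGD, a Rag GTPase known as a TFEB target, fell (-0.23 ± 0.06), and the Ragulator gene LAMTOR5 rose (0.25 ± 0.07). Corrected, 0 of the 24 were higher and 2 were lower, TSC2 (-0.18) and RRAGD (-0.22). Over all 17104 genes the corrected fit called 1771 higher and 1528 lower. RHEB (0.09, adjusted p = 0.137) and LAMTOR5 (0.15, adjusted p = 0.101) no longer passed.

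**Figure D5:**
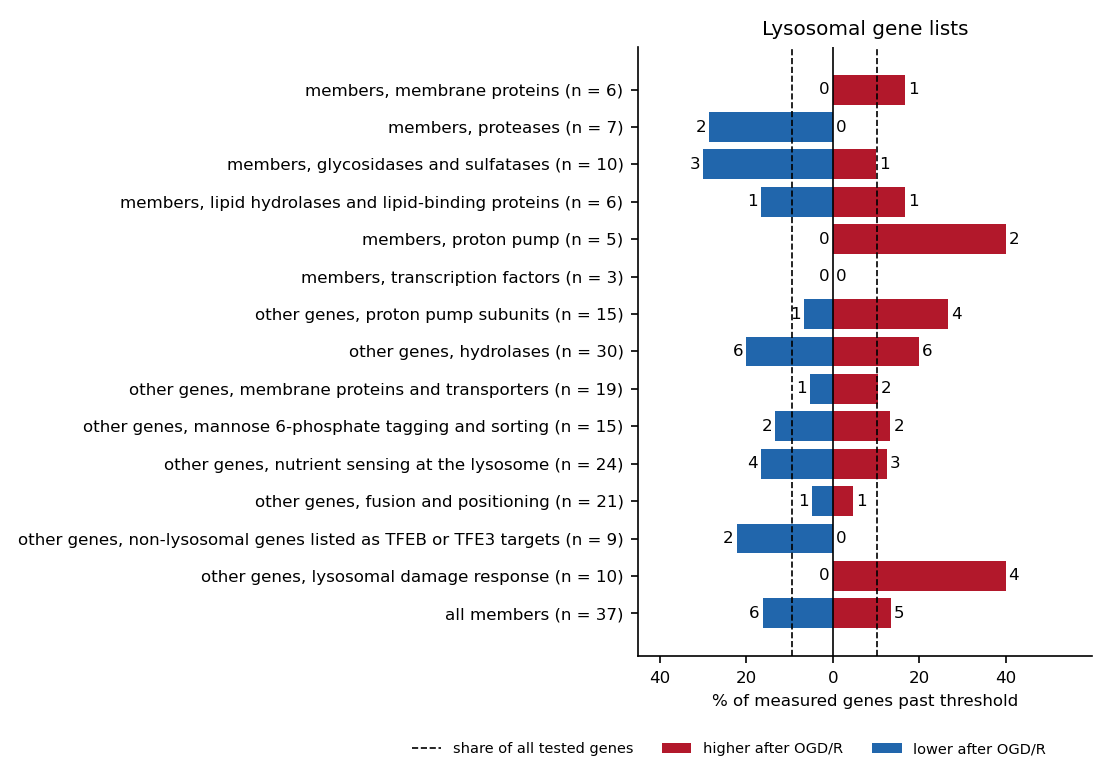
Share of measured genes past the threshold in each lysosomal list (x axis, percent of the list), blue to the left for lower and red to the right for higher after OGD/R, with the number of genes at each bar. Dashed lines mark the shares over all tested genes, 9.48% lower and 10.2% higher. Protease members have bars to the left alone and pump members to the right alone, on 7 and 5 genes.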

How the data were processed

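RNA-seq counts of 3 control and 3 OGD/R libraries were analysed. The authors deposited raw counts of reads, 1 row per Ensembl gene. Per the submitters' processing notes, the authors' tools were featureCounts, HISAT2, Trimmomatic, edgeR and SAMtools, and the build was the mouse build GRCm38, while the identifiers in the deposited table are human. The build, the use of strand and the treatment of multi-mapping reads are therefore uncertain, and overlapping genes or pseudogenes can share counts. Every row reached 10 counts in 3 or more libraries.

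Here, counts were scaled by TMM and tested with edgeR 4.0.16 (R 4.3.3) by the quasi-likelihood test with robust dispersions, two-sided, over all 17104 genes, adjusted by Benjamini-Hochberg. The threshold was 0.05, and filterByExpr (minimum count 10) removed 0 genes. Levels are TMM-scaled CPM. Standard errors come from the fold change and the F statistic. The script was tested on simulated data. Libraries of a group differed by more than sampling noise (chi-square per degree of freedom 4.07 to 7.42 within groups, 16.0 to 23.5 across). They were treated as separate samples, but this does not show that they came from separate cultures. Symbols were found for 17093 genes. Transcript lengths and GC content are those of the longest GENCODE 29 transcript, known for 96.6% of genes, and the correction (mgcv 1.9.3) removed a smooth trend on both from each library. Exon overlap was computed from the same annotation, either strand. The genes, lists and tests were chosen with earlier results of these data known. Per-library values are given for called members and for 8 genes fixed by name. From each further list up to 4 called genes of smallest p are named, and a few genes that this rule names are not reported here. Alternatives were total-count, RLE and upper-quartile scaling, limma-voom (limma 3.58.1), DESeq2 1.42.0, no filter on low counts, a filter of 1 CPM in 3 libraries, mitochondrial genes left out, the replicate block, each library left out, and the length and GC correction.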

Additional observations from a re-analysis of the deposited data

How the results depend on the processing

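Under the 16 alternatives the number of higher lysosomal genes was 5, or 6 without control replicate 2, where NPC2 was added (0.14, adjusted p = 0.0361). The 5 were the same genes except after the length and GC correction, where NEU1 passed and CD63 did not. GLA, LIPA, ATP6V0D1, ATP6V1A, TPP1 and GAA passed in the same direction in all 16. With each library left out in turn the number of lower lysosomal genes ran from 2 to 8, that of lower genes over all genes from 1079 (without control replicate 3) to 1527, and that of all called genes from 2383 to 3367. The median of the lysosomal genes was -0.032 with total-count scaling, beside -0.035 for all genes. After the length and GC correction it was -0.053, beside -0.014 for all genes. Of 591 values of single lysosomal genes under the alternatives, 540 kept direction and side of the threshold, 14 lost the call, 11 gained one and 26 changed sign, none of the last past the threshold in either fit. The changes of sign with total-count scaling were LAMP1 (-0.023), GUSB (-0.0054), PPT1 (-0.013), SMPD1 (-0.0035) and ATP6AP1 (-0.025). After the length and GC correction they were CTSC (0.0012), GUSB (-0.0050), NPC2 (-0.054) and ATP6V1H (-0.024), and with upper-quartile scaling CTSL (0.0050). With single libraries left out, values ran from -0.022 to 0.025 for LAMP1, -0.064 to 0.011 for LAMP2, -0.049 to 0.014 for CTSC, -0.024 to 0.046 for CTSL, -0.076 to 0.036 for CTSZ, -0.0048 to 0.055 for GUSB, -0.010 to 0.15 for NAGLU, -0.0063 to 0.046 for PPT1, -0.0014 to 0.073 for SMPD1, -0.0037 to 0.090 for ATP6V1H and -0.029 to 0.030 for ATP6AP1. The cause of these shifts was not tested. Deviations of same-numbered libraries from their group means had Pearson's r of -0.00087, 0.08 and -0.0077 across 11546 genes. Pairs with unlike numbers had -0.059 to 0.063. With 3 libraries per group, these values cannot tell whether the numbers mark a shared culture or day. With the replicate block 1827 genes were higher and 1702 lower, and of the lysosomal genes 5 and 6, the same genes as without it. The fit without a filter tested the same genes and shows nothing about filtering, and CLN3 was not tested with at least 1 CPM in 3 libraries. CLN3 had the lowest counts of the lysosomal genes.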

Other observations

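Genes that respond to damaged lysosomes were higher in part. Of 10 measured genes of that list 4 rose and 0 fell, beside 10.2% higher and 9.48% lower among all genes. The rising genes numbered 3 with total-count scaling, and also without control replicate 2 or OGD/R replicate 1, 2 or 3. The median log2 fold change of the list was 0.08. LGALS1, a galectin, rose from 446 ± 41.1 to 539 ± 19.9 CPM (mean ± SD, n = 3 each, 0.27 ± 0.05 SE, edgeR adjusted p = 0.000111). The ESCRT-III genes CHMP4B and CHMP2A, whose products seal membranes, rose from 151 ± 6.36 to 175 ± 5.76 CPM (0.21 ± 0.04) and from 53.7 ± 4.76 to 66.3 ± 5.24 CPM (0.30 ± 0.06). ATG2A, a lipid transfer protein, rose from 94.6 ± 3.12 to 104 ± 1.94 CPM (0.14 ± 0.05). All 4 passed after the length and GC correction as well, at 0.10, 0.13, 0.18 and 0.29. These proteins also act outside the lysosome. In the list of fusion and positioning genes 1 of 21 rose and 1 fell, 9.52% beside 19.7% of all genes. The SNARE gene VAMP8 rose from 56.8 ± 4.89 to 72.0 ± 1.14 CPM (0.34 ± 0.06, and 0.17 after the correction), and PLEKHM1, an adaptor for fusion, fell from 57.3 ± 2.41 to 47.5 ± 3.07 CPM (-0.27 ± 0.06). Of 9 measured genes listed as TFEB or TFE3 targets outside the lysosome, 2 fell and 0 rose, 22.2% called beside 19.7% of all genes, which is near the background. They were the autophagy receptor gene SQSTM1, from 537 ± 32.8 to 428 ± 17.7 CPM (-0.32 ± 0.04), and VPS8 (-0.30 ± 0.07).

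Among the vesicle receptors for hydrolases, IGF2R fell while M6PR did not pass, and the difference between the 2 was not tested.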
